A study of Mus musculus with 18 samples.

Results

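The troponin and tropomyosin genes were read as the 9 rows of the gene count table named Tnni1, Tnni3, Tnnt1, Tnnt2, Tnnt3, Tnnc1, Tnnc2, Tpm1 and Tpm2, of 54532 genes in all. Of these, 4 encode the forms of adult heart muscle (Tnni3, Tnnt2, Tnnc1 and Tpm1), and 5 encode forms better known from slow or fast skeletal muscle (Tnni1, Tnnt1, Tnnt3, Tnnc2 and Tpm2). RNA was taken from the apex of the heart in 18 mouse libraries, 3 in each of 6 groups. Lamin A and lamin C are the 2 products of Lmna, and the series supplied 1 or the other by a viral vector (rAAV9) to hearts given an shRNA against Lmna as a model of dilated cardiomyopathy. In batch LC the groups were Lmna shRNA with lamin C, Lmna shRNA alone, and control. In batch LA they were Lmna shRNA with lamin A, Lmna shRNA alone, and control. All hearts had the genotype label WT, and the groups are called lamin C, lamin A, shRNA and control hearts below. Age, the time of sampling, the promoters used and what the control hearts received are not given in the sources used here. Each lamin was given in 1 batch, so lamin and batch can be told apart only through the shRNA and control hearts of the same batch.

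Troponin and tropomyosin sit on the actin filament of striated muscle and make contraction depend on calcium. Troponin C binds calcium, troponin I holds contraction off until it does, and troponin T ties both to tropomyosin, which lies along actin and covers or uncovers the myosin binding sites. Each subunit is encoded by a small family of genes used in heart, slow or fast muscle, and the mouse heart replaces slow skeletal troponin I (Tnni1) with cardiac troponin I (Tnni3) around birth, while cardiac and slow muscle share 1 troponin C, Tnnc1.

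The libraries held 31418657 to 41259968 counts. Mitochondrially encoded genes took 23.2 to 24.8% of counts in lamin C hearts, 20.3 to 22.6% in lamin A hearts, 13.0 to 15.6% in shRNA hearts and 25.2 to 27.0% in control hearts. TMM scaling, which assumes that most genes do not change, was set beside scaling by library totals. Over all genes tested, the median log2 fold change of shRNA over control hearts was 0.05 with TMM and 0.48 with library totals, and directions that turn on this choice are marked; the part of the mitochondrial share in this gap was not tested. FPKM values are counts scaled for gene length and an adjusted library size. That size lay near the TMM-scaled one: 49472998 and 48217181 in shRNA replicate 1 of batch LC, which had 41259968 counts. In control replicate 1 of batch LC they were 31229603 and 30606912, with 35513207 counts. Differences in FPKM between shRNA and control hearts thus follow TMM scaling rather than library totals. In FPKM, Lmna itself lay at 178.6 to 229.8 in lamin C, 19.1 to 22.8 in shRNA and 20.1 to 21.5 in control hearts of batch LC. In batch LA it lay at 83.7 to 92.7 in lamin A, 20.3 to 21.7 in shRNA and 18.8 to 20.1 in control hearts. The libraries labelled Lmna shRNA thus did not have lower Lmna levels than control hearts (log2 fold change 0.06 ± 0.08 (SE), edgeR adjusted p = 0.578 in batch LC, and 0.11 ± 0.08, adjusted p = 0.258 in batch LA), and with library totals Lmna was called higher in them (0.48, adjusted p = 7.24e-05 in batch LC, and 0.55, adjusted p = 1.65e-05 in batch LA). The name shRNA hearts stands for that label. Counts of Lmna separate neither lamin A from lamin C nor vector from host transcripts. Markers of heart muscle were present in every group, with 14 of 14 at 1 CPM (count scaled to the library size) or more.

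Each troponin T gene lies near a troponin I gene. Positions are those of the deposited table, on mm10. On chromosome 7, slow skeletal troponin T (Tnnt1, ENSMUSG00000064179, chr7:4504570-4516382, minus strand) lies 1922 bases from cardiac troponin I (Tnni3, ENSMUSG00000035458, chr7:4518305-4524229, minus strand) with no coding gene between them. On chromosome 1, Tnni1 (ENSMUSG00000026418, chr1:135779434-135810989, plus strand) lies 25364 bases from cardiac troponin T (Tnnt2, ENSMUSG00000026414, chr1:135836354-135852260, plus strand), with Lad1 between them. Fast skeletal troponin T (Tnnt3, ENSMUSG00000061723, chr7:142498836-142516009, plus strand) lies 54425 bases from fast skeletal troponin I (Tnni2), with Lsp1 between. Cardiac and slow troponin C is Tnnc1 (ENSMUSG00000091898, chr14:31208312-31211729, plus strand) and fast troponin C is Tnnc2 (ENSMUSG00000017300, chr2:164777161-164779967, minus strand). Alpha tropomyosin is Tpm1 (ENSMUSG00000032366, chr9:67022590-67049406, minus strand) and beta tropomyosin is Tpm2 (ENSMUSG00000028464, chr4:43514711-43523765, minus strand).

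The 150 bases before the transcript start are shown for the neighbours Tnnt1 and Tnni3, whose ratio differed between the groups of each batch without overlap, and for Tnnt2 with Tnnc1 and Tpm1, whose ratios to Tnnt2 overlapped between shRNA and control hearts. The sequences are from RefSeq on GRCm38.p6 (chr7:4515976-4516125 and chr7:4522529-4522678 on the minus strand, chr1:135836184-135836333 and chr14:31208162-31208311 on the plus strand, and chr9:67049214-67049363 on the minus strand). They read 5′ to 3′ along the gene, and capitals mark motif matches on either strand.
Tnnt1: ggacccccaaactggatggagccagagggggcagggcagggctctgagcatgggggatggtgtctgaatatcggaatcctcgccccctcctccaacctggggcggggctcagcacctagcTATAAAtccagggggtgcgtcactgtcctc
Tnni3: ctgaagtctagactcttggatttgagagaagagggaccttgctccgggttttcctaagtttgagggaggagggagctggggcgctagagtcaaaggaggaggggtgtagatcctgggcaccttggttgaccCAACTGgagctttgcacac
Tnnt2: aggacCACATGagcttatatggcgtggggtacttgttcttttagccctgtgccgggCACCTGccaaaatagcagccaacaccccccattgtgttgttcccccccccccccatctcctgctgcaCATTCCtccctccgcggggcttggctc
Tnnc1: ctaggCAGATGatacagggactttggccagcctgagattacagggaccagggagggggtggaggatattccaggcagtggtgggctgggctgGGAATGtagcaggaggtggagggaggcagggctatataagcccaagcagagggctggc
Tpm1: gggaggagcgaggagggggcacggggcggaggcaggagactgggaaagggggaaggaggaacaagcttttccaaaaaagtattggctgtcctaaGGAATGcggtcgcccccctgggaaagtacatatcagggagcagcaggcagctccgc
The capitals in Tnnt1 are the TATA box letters TATAAA. No other of the 8 members with a promoter sequence held TATAAA in this window, against 7.57% of 32841 windows of all genes. Only these exact letters were searched, and the similar tatataa in Tnnc1 was not counted. The capitals in Tnni3 are an E-box (CANNTG), a motif of 47.7% of all windows and of 5 of the 8 members. The last capitals in Tnnt2 and Tnnc1, and the only ones in Tpm1, are an MCAT motif (CATTCC or CATTCT), found in these 3 members and in 15.1% of all windows, and the capitals before them are E-boxes. No first window of the 8 members held a MEF2 site, a CArG box, or the NKX2-5 motif AAGTG, which stood in 1.66%, 0.917% and 26.4% of all windows. Tnni1 and Tnnt2 each have a further window, and that of Tnni1 held AAGTG. The shares of all windows include such further windows. A GATA motif (AGATAA, or the same with T first, G last or both) was in none of the 8 and in 16.001% of all windows. No motif was tested against the expression values, by which the promoters shown were chosen. A match describes the letters only, and no match concerns this window only.

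The cardiac genes dominated in every group. In control hearts of batch LC, Tnni3 averaged 1840 ± 99.7 FPKM (SD, n = 3), Tnnc1 1724, Tpm1 1438 and Tnnt2 1048, while Tpm2 averaged 9.64, Tnnt1 6.40, Tnnt3 0.487, Tnnc2 0.250 and Tnni1 0.0345 FPKM. The order was the same in control hearts of batch LA. Among neighbours in it, Tnni3 and Tnnc1 overlapped in batch LC, and Tnnc2 and Tnni1 overlapped in batch LA; the others did not. In shRNA hearts Tnni3 stood below Tnnc1, Tpm1 and Tnnt2, in 4th place in both batches, with either gene length described next. The place of Tnnt2 depends on length: the deposited 7752 bases join all exons of the gene, against a median of 1104.5 bases for its coding transcripts in GENCODE M21, and by the shorter length, added after seeing the data, Tnnt2 came first in all 6 groups. Counts were per gene and do not separate splice forms, of which the annotation lists 12 coding ones for Tnnt2 and 16 for Tpm1.

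**Figure D1:**
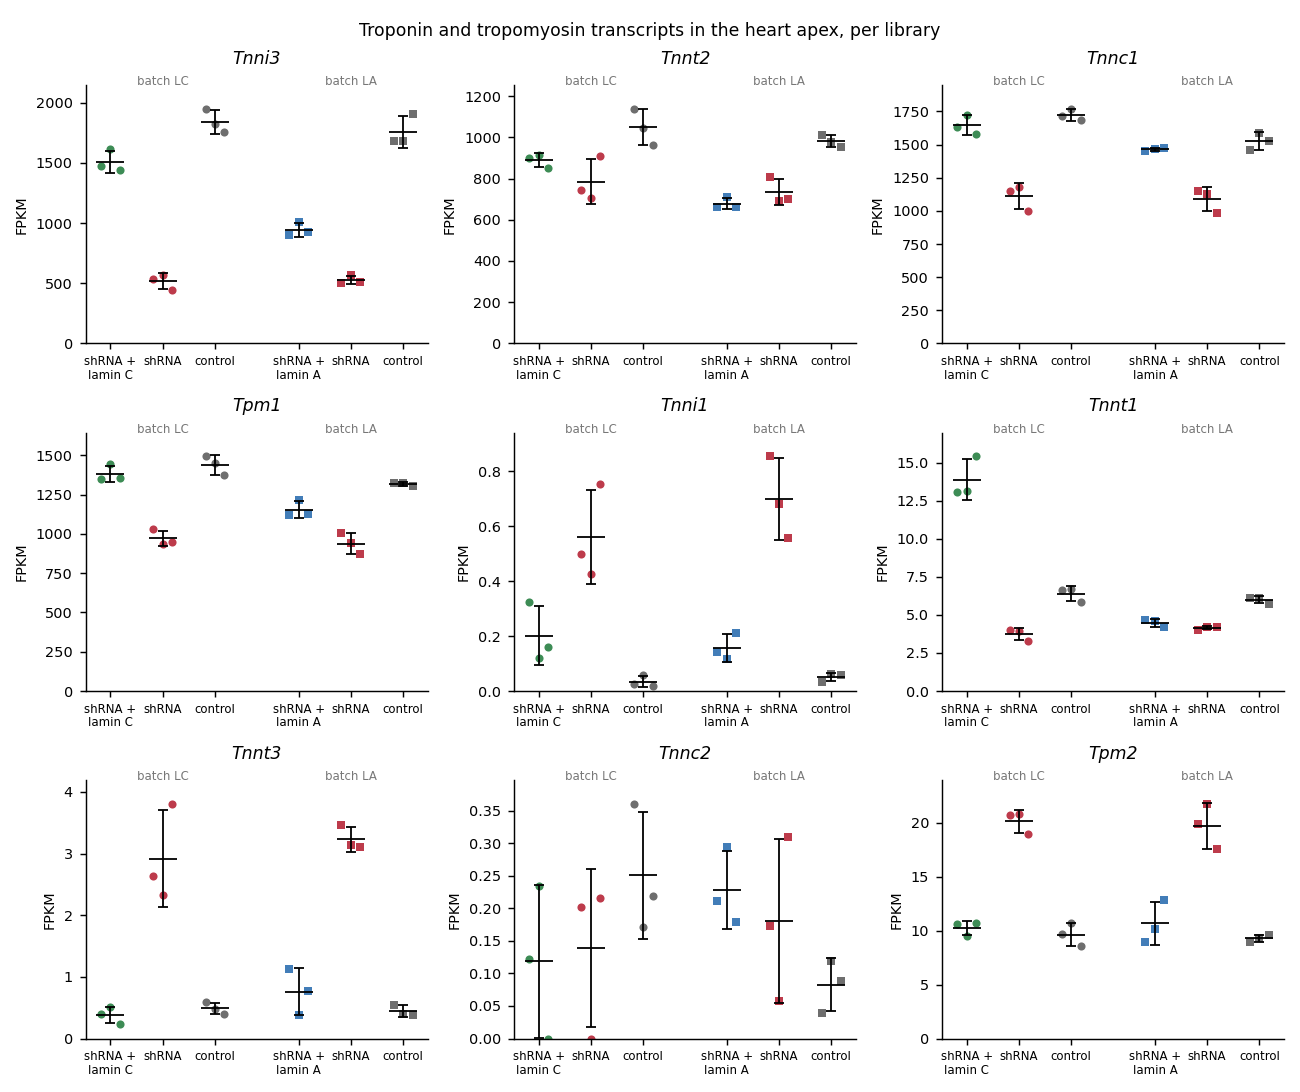
FPKM (vertical axes, from 0) of the 9 genes in each library (points), with the mean and SD of each group of 3 libraries, batch LC left and batch LA right in each panel. Tnni3 averaged 518 FPKM in shRNA and 1840 FPKM in control hearts of batch LC, while Tnnt1 averaged 13.9 FPKM in lamin C hearts, above all other groups.

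In shRNA hearts against control hearts, cardiac troponin I fell furthest among the cardiac genes, and 3 genes of the skeletal type rose while Tnnt1 fell. All 8 members tested were called in both batches, 3 higher and 5 lower, where 62.9% of all tested genes were called in batch LC (33.3% higher, 29.6% lower) and 61.4% in batch LA (32.4% higher, 29% lower; edgeR, adjusted p under 0.05). The median log2 fold change of the 8 members over both batches was -0.47, against 0.05 for all genes. Tnnc2, at 0 to 11 counts per library, failed the filter on low counts, so that 8 of the 9 members were tested. Tnni1 passed that filter only through shRNA and lamin hearts, where it was higher. Scaled by library totals, the count was 3 higher and 1 lower in batch LA, and 3 higher and 4 lower in batch LC.

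Tnni3 had 534.9, 572.1 and 447.1 FPKM in shRNA hearts of batch LC, against 1949, 1819 and 1753 FPKM in control hearts. In batch LA it had 503.4, 565.2 and 506.9 FPKM in shRNA hearts, against 1682, 1680 and 1908 FPKM in control hearts. The groups were far apart in both batches, with shRNA hearts at 28.2% ± 3.49 (SD, n = 3) and 29.9% ± 1.98 of the mean of their own controls. Tnni3 fell by 1.78 ± 0.06 on the log2 scale over both batches (edgeR adjusted p = 3.14e-15), and by 1.35 with library totals. Its counts share a strand and some sequence with Dnaaf3, which had 89 to 386 counts against 37359 or more for Tnni3.

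The other 3 cardiac genes fell less, and their fall depends on the scaling. Tnnt2 had 743.0, 703.8 and 909.5 FPKM in shRNA hearts of batch LC, against 1138, 1043 and 963.7 FPKM in control hearts, and 806.8, 692.3 and 701.9 FPKM in shRNA hearts of batch LA, against 1012, 978.2 and 954.6 FPKM in control hearts. In FPKM, which follows TMM scaling, the groups did not overlap in either batch, and this separation depends on the scaling too. Tnnt2 fell by 0.41 ± 0.06 on the log2 scale over both batches (edgeR adjusted p = 4.92e-06), but stood at 0.02 with library totals (adjusted p = 0.732). Tnnc1 averaged 1111 ± 97.1 FPKM in shRNA and 1724 ± 43.1 FPKM in control hearts of batch LC, and 1088 ± 89.3 FPKM in shRNA and 1526 ± 66.6 FPKM in control hearts of batch LA (SD, n = 3 each). It fell by 0.55 ± 0.05 (edgeR adjusted p = 2.07e-09), but by only 0.12 with library totals, and it overlaps Nisch (6388 to 10881 counts) on the other strand, which the counting may not have kept apart. Tpm1 averaged 971 ± 50.2 FPKM in shRNA and 1438 ± 61.2 FPKM in control hearts of batch LC, and fell by 0.52 ± 0.04 over both batches (adjusted p = 1.20e-09), or by 0.09 with library totals.

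Among the skeletal-type genes, Tnni1, the troponin I of the fetal heart and of slow muscle, rose from a very low level. It had 89, 59 and 110 counts in shRNA hearts of batch LC, against 3, 6 and 2 counts in control hearts, and 134, 106 and 89 counts in shRNA hearts of batch LA, against 4, 7 and 6 counts in control hearts. No shRNA library came near any control library, yet the level in shRNA hearts was 0.561 ± 0.172 FPKM in batch LC and 0.698 ± 0.149 FPKM in batch LA. Tnni1 was 15.97-fold and 13.4-fold higher in shRNA than in control hearts (log2 fold change over both batches 3.87 ± 0.31, edgeR adjusted p = 8.97e-10). Control hearts alone would not have passed the filter on low counts. Tnni1 was tested because shRNA and lamin hearts, where it was higher, passed. The size of the fold rests on 2 to 7 counts in each control library.

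Tnnt3, the troponin T of fast muscle, had 2.63, 2.32 and 3.81 FPKM in shRNA hearts of batch LC, against 0.587, 0.477 and 0.399 FPKM in control hearts. In batch LA it had 3.47, 3.13 and 3.10 FPKM in shRNA hearts, against 0.550, 0.404 and 0.380 FPKM in control hearts. The groups did not overlap, and Tnnt3 was 5.98-fold and 7.25-fold higher in shRNA hearts (log2 fold change over both batches 2.72 ± 0.22, edgeR adjusted p = 9.11e-10). It overlaps Prr33, at 66 to 402 counts, on the other strand, so its level is uncertain. Tnni2, the fast troponin I beside it and not a member, had a log2 fold change of 0.28 ± 0.20 (edgeR adjusted p = 0.216), or 0.71 with library totals (adjusted p = 0.00276).

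Tpm2, the beta tropomyosin of slow and smooth muscle, had 20.7, 20.8 and 18.9 FPKM in shRNA hearts of batch LC, against 9.68, 10.7 and 8.56 FPKM in control hearts. In batch LA it had 19.9, 21.7 and 17.5 FPKM in shRNA hearts, against 8.94, 9.36 and 9.56 FPKM in control hearts. Every shRNA library stood above every control library, and Tpm2 was 2.10-fold and 2.14-fold higher (log2 fold change over both batches 1.08 ± 0.08, edgeR adjusted p = 1.17e-10).

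Tnnt1, the troponin T of slow muscle, went the other way. It had 3.99, 3.95 and 3.26 FPKM in shRNA hearts of batch LC, against 6.65, 6.71 and 5.84 FPKM in control hearts, and 4.03, 4.23 and 4.19 FPKM in shRNA hearts of batch LA, against 6.12, 6.12 and 5.75 FPKM in control hearts. In FPKM, which follows TMM scaling, the groups did not overlap, and in batch LA this separation depends on that scaling. Tnnt1 fell by 0.65 ± 0.06 over both batches (edgeR adjusted p = 2.25e-08), but by 0.21 with library totals (adjusted p = 0.00575) and in batch LA by 0.08 (adjusted p = 0.420). Tnnc2 had 8, 0 and 7 counts in the shRNA hearts of batch LC and 4 to 9 in control hearts, and 2 to 11 counts in shRNA hearts of batch LA and 1 to 3 in control hearts, and failed the filter, so it was not tested. In lamin C hearts it had 3, 7 and 0 counts, overlapping control hearts, and in lamin A hearts it had 6, 9 and 6 counts, above the 1, 3 and 2 counts of control hearts of batch LA. Ube2c, which overlaps it on the other strand, had 25 to 164 counts, so the level of Tnnc2 is uncertain. No effect of the shRNA differed between batches for any tested member (0 of 8 called, against 0.00559% of all genes), with Tnnt1 the nearest at -0.25 ± 0.13 (edgeR adjusted p = 0.799); the count was also 0 at an unadjusted p under 0.05, and by DESeq2.

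**Figure D2:**
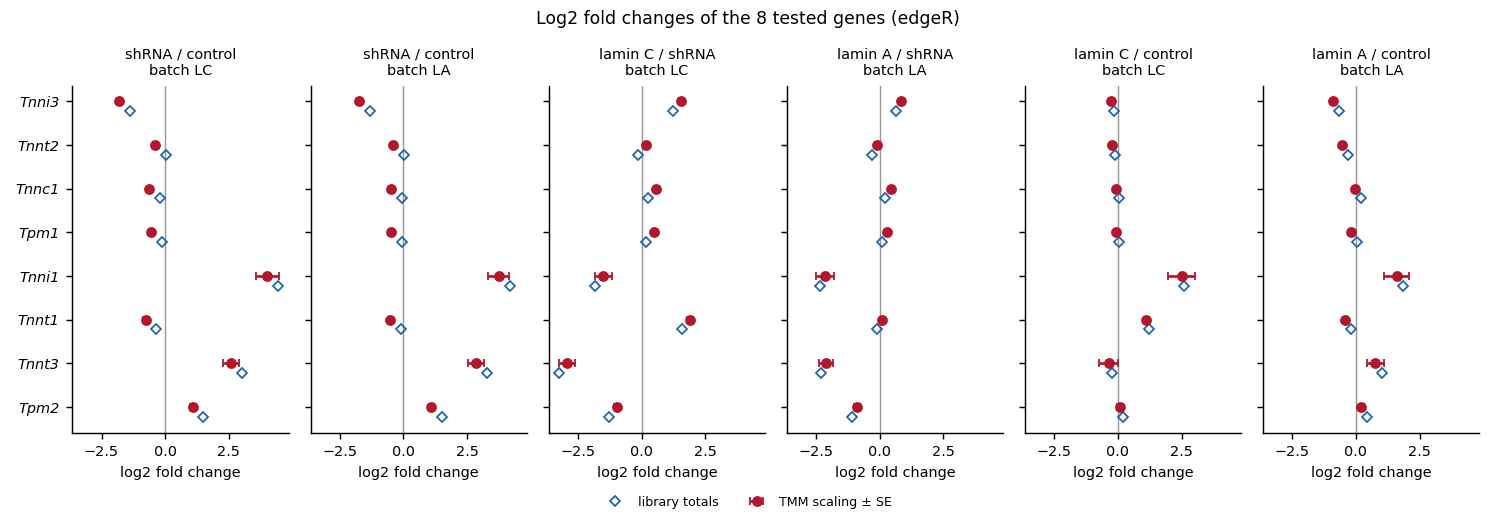
Log2 fold changes (horizontal axes) of the 8 tested genes in 6 comparisons (panels), by edgeR with TMM scaling (filled circles, bars ± SE) and with library totals (open diamonds). Tnni3 lay at -1.82 and -1.73 in shRNA over control hearts of batches LC and LA, while the diamonds of Tnnt2 lay at 0.02 and 0.03.

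Ratios within a library do not depend on library scaling, and they showed 3 isoform shifts in shRNA hearts. Tnni1 stood at 0.112% ± 0.0498 of Tnni3 in shRNA and 0.00188% ± 0.00111 in control hearts of batch LC (ratio of FPKM, SD, n = 3), and at 0.134% ± 0.0319 in shRNA and 0.00295% ± 0.000830 in control hearts of batch LA. Tnnt3 stood at 0.367% of Tnnt2 in shRNA and 0.0462% in control hearts of batch LC, and at 0.442% in shRNA and 0.0451% in control hearts of batch LA. Tpm2 stood at 2.08% of Tpm1 in shRNA and 0.670% in control hearts of batch LC, and at 2.10% in shRNA and 0.705% in control hearts of batch LA. None of these groups overlapped within a batch, and each ratio gave p = 0.005, the smallest that a two-sided exact permutation of 6 against 6 libraries within batches can give, or 0.00667 adjusted over 4 ratios. With 0.1 added to each FPKM, the log2 difference of Tnni1/Tnni3 was 4.11 and 4.12 in batches LC and LA, against 5.97 and 5.52 without it. Even where the shift was steep, the cardiac gene remained far above its skeletal counterpart.

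The ratio of Tnnt1 to Tnnt2 separated the groups less. It was 0.486% ± 0.111 in shRNA and 0.611% ± 0.0297 in control hearts of batch LC, and 0.569% ± 0.0606 in shRNA and 0.611% ± 0.0126 in control hearts of batch LA, with overlap in batch LA (exact permutation p = 0.020 over both batches, adjusted 0.020). This call was lost when control replicate 1, 2 or 3 of batch LC or control replicate 2 of batch LA was left out (exact permutation p = 0.10, 0.12, 0.10 and 0.055).

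The cardiac subunits also shifted against each other, in 5 ratios added after seeing the data, whose p is not adjusted. Tnni3 stood at 67.5% ± 16.5 of Tnnt2 in shRNA and 175.8% ± 5.51 in control hearts of batch LC, and at 72.1% ± 9.62 in shRNA and 179% ± 18.1 in control hearts of batch LA (exact permutation p = 0.005 over both batches). Its ratio to Tnnc1 was 46.6% ± 1.88 in shRNA and 106.8% ± 5.84 in control hearts of batch LC, and 48.4% ± 4.06 in shRNA and 115.2% ± 9.45 in control hearts of batch LA (p = 0.005 by the same permutation). By contrast, the ratios of Tnnc1 and of Tpm1 to Tnnt2 overlapped between shRNA and control hearts (log2 difference -0.14, exact permutation p = 0.20, and -0.11, exact permutation p = 0.11). A ratio between 2 genes depends on the gene lengths used, while its change between groups does not.

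**Figure D3:**
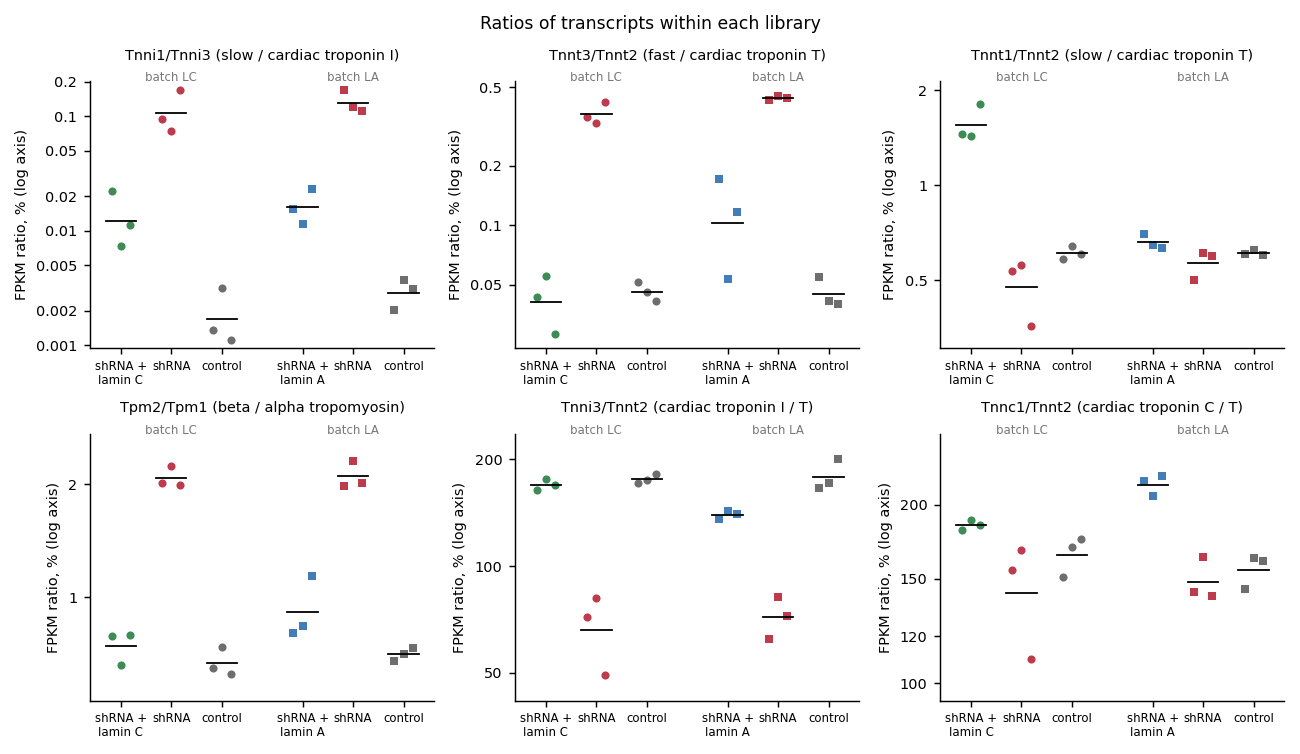
FPKM ratios within each library, in percent on log axes, with 1 point per library and a line at the geometric mean of each group of 3. Tnni1/Tnni3, Tnnt3/Tnnt2 and Tpm2/Tpm1 stood highest in the shRNA hearts of both batches, and Tnnt1/Tnnt2 averaged 1.57% in lamin C hearts against 0.611% in control hearts of batch LC.

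Lamin C hearts differed from shRNA hearts in 7 of 8 members, 4 higher and 3 lower (54.1% of all tested genes were called, 25.7% higher and 28.4% lower; members' median log2 fold change 0.34, all genes -0.04). Tnni3 had 1476, 1615 and 1441 FPKM in lamin C hearts, against 534.9, 572.1 and 447.1 FPKM in shRNA hearts. It was 2.91-fold higher (log2 fold change 1.54 ± 0.08, edgeR adjusted p = 4.75e-11), with no overlap. Tnnc1 averaged 1645 ± 75.2 FPKM in lamin C and 1111 ± 97.1 FPKM in shRNA hearts (log2 fold change 0.56, edgeR adjusted p = 6.13e-07), and Tpm1 averaged 1381 ± 52.6 FPKM in lamin C and 971 ± 50.2 FPKM in shRNA hearts (0.50, adjusted p = 7.16e-07). Both remained called with library totals, at 0.25 and 0.19. Tnnt2 had 900.3, 916.4 and 851.8 FPKM in lamin C hearts, overlapping the shRNA hearts, and was not called (log2 fold change 0.17 ± 0.08, edgeR adjusted p = 0.0925, and -0.14 with library totals). Without shRNA replicate 3 of batch LC, the highest of its group, Tnnt2 was called at 0.30 (edgeR adjusted p = 0.00199), as it was with no filter on low counts (0.18, adjusted p = 0.00614).

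Of the skeletal-type genes, Tnnt3 had 0.390, 0.507 and 0.239 FPKM in lamin C hearts, against 2.63, 2.32 and 3.81 FPKM in shRNA hearts (log2 fold change -2.94 ± 0.31, edgeR adjusted p = 1.63e-07). Tpm2 had 10.6, 9.50 and 10.7 FPKM in lamin C hearts, against 20.7, 20.8 and 18.9 FPKM in shRNA hearts (-0.98 ± 0.11, adjusted p = 2.17e-07). Tnni1 had 36, 16 and 20 counts in lamin C hearts, against 89, 59 and 110 counts in shRNA hearts (-1.50 ± 0.34, edgeR adjusted p = 8.68e-04). All 3 were lower with lamin C and none overlapped shRNA hearts. Tnnt1, lower in shRNA than in control hearts, had 13.1, 13.1 and 15.4 FPKM in lamin C hearts, against 3.99, 3.95 and 3.26 FPKM in shRNA hearts, a 3.70-fold difference (log2 fold change 1.89 ± 0.09, edgeR adjusted p = 1.36e-11).

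Lamin A hearts differed from shRNA hearts in 6 of 8 members, 3 higher and 3 lower (29.8% of all tested genes were called, 16.1% higher and 13.7% lower; members' median log2 fold change -0.01, all genes 0.00). With library totals, 2 members were higher and 4 lower. Tnni3 had 900.5, 1012 and 924.4 FPKM in lamin A hearts, against 503.4, 565.2 and 506.9 FPKM in shRNA hearts, a 1.80-fold difference with no overlap (log2 fold change 0.85 ± 0.08, edgeR adjusted p = 5.45e-07). Tnnc1 averaged 1465 ± 10.2 FPKM in lamin A and 1088 ± 89.3 FPKM in shRNA hearts (0.43, adjusted p = 6.63e-05). Tpm1 averaged 1154 ± 55.7 FPKM in lamin A and 938 ± 67.1 FPKM in shRNA hearts (0.29, adjusted p = 9.02e-04, and 0.09 with library totals, adjusted p = 0.158). Tnnt2 had 663.8, 709.1 and 660.6 FPKM in lamin A hearts, against 806.8, 692.3 and 701.9 FPKM in shRNA hearts. These overlapped (-0.12 ± 0.08, edgeR adjusted p = 0.330), although with library totals Tnnt2 was lower in lamin A hearts (-0.32, adjusted p = 0.00445).

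Tnni1 had 18, 16 and 32 counts in lamin A hearts, against 134, 106 and 89 counts in shRNA hearts (log2 fold change -2.15 ± 0.34, edgeR adjusted p = 7.36e-05). Tnnt3 had 1.14, 0.380 and 0.768 FPKM in lamin A hearts, against 3.47, 3.13 and 3.10 FPKM in shRNA hearts (-2.10 ± 0.28, adjusted p = 1.37e-05). Tpm2 had 8.97, 10.2 and 12.8 FPKM in lamin A hearts, against 19.9, 21.7 and 17.5 FPKM in shRNA hearts (-0.89 ± 0.11, adjusted p = 4.26e-06). All 3 were lower with lamin A, without overlap. Tnnt1 had 4.66, 4.59 and 4.17 FPKM in lamin A hearts, against 4.03, 4.23 and 4.19 FPKM in shRNA hearts. Those groups overlapped, and the log2 fold change was 0.10 ± 0.09 (edgeR adjusted p = 0.431), or -0.10 with library totals.

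Against control hearts, lamin C hearts still differed in 3 of 8 members, 2 higher and 1 lower, where 15% of all tested genes were called (8.87% higher, 6.18% lower). Tnnt1 stood at 217% ± 20.7 of the control mean in lamin C hearts (log2 fold change 1.12 ± 0.09, edgeR adjusted p = 1.99e-07), above every control library. Tnni1 was 5.65-fold higher in lamin C than in control hearts (2.50 ± 0.52, adjusted p = 0.00302). Tnni3 stood at 82.1% ± 5.01 of the control mean in lamin C hearts and was called lower (-0.28 ± 0.08, adjusted p = 0.0245), a call lost with library totals (-0.17) and without control replicate 1 or 2 (-0.24 and -0.29) or lamin C replicate 1 or 3 (-0.26 and -0.25). Tnnt3 (-0.36 ± 0.38), Tpm2 (0.09 ± 0.11), Tnnc1 (-0.06 ± 0.07; 0.05 with library totals) and Tpm1 (-0.06 ± 0.06; 0.06 with library totals) were not called. Tnnt2 was not called (-0.23 ± 0.08, adjusted p = 0.0711), but was called by DESeq2 (adjusted p = 0.0353) and, by edgeR, with no filter on low counts (adjusted p = 0.00147), in the compared groups alone (0.0434), without control replicate 3 (0.0391) and without the 2 late-numbered controls (0.0481).

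Lamin A hearts differed from control hearts in 5 of 8 members, 1 higher and 4 lower, where 46.2% of all tested genes were called (24.1% higher, 22.1% lower). With library totals the balance turned, with 4 members higher and 2 lower. Tnni3 stood at 53.8% ± 3.35 of the control mean in lamin A hearts (log2 fold change -0.89 ± 0.08, edgeR adjusted p = 4.75e-08), and Tnnt2 at 69.1% ± 2.76 (-0.53 ± 0.09, adjusted p = 4.09e-05). Tnnt1 stood at 74.6% ± 4.34 (-0.42 ± 0.09, adjusted p = 7.86e-04, and -0.18 with library totals, adjusted p = 0.104). Tpm1 stood at 87.6% ± 4.23 (-0.19 ± 0.06, adjusted p = 0.0149), but at 0.05 on the log2 scale with library totals, and it was not called without lamin A replicate 1 or 3 (-0.17 in each). Tnni1 was 3.03-fold higher in lamin A than in control hearts (1.60 ± 0.49, edgeR adjusted p = 0.0109), a call lost without control replicate 1 (1.36) or lamin A replicate 3 (1.302). Tnnt3 (0.76 ± 0.35, adjusted p = 0.0785) and Tpm2 (0.21 ± 0.11, adjusted p = 0.127) were not called, but both were with library totals (1.00 and 0.44) or no filter (0.78 and 0.22), and so were Tnnt3 without lamin A replicate 2 (1.08) and Tpm2 without lamin A replicate 1 (0.32). Without lamin A replicate 3, the count of members called was 3. Tnnc1 lay at -0.05 ± 0.07, or 0.18 with library totals (adjusted p = 0.0141).

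The effects of lamin C and lamin A, each against the shRNA hearts of its own batch, differed for 2 of 8 members, with 18.7% of all tested genes called (8.84% higher, 9.9% lower). Tnnt1 had the larger difference, 1.79 ± 0.13 on the log2 scale (edgeR adjusted p = 3.18e-07), and Tnni3 differed by 0.69 ± 0.12 (adjusted p = 4.01e-04), both higher with lamin C. The changes left against control hearts differed for the same 2 genes, with 14.6% of all tested genes called (7.29% higher, 7.35% lower), by 1.54 ± 0.13 for Tnnt1 (adjusted p = 3.56e-06) and 0.61 ± 0.12 for Tnni3 (adjusted p = 0.00168). With library totals these 4 differences were 1.68, 0.58, 1.42 and 0.48, all called. The lamin effects were also called different for Tnnt2 without shRNA replicate 3 of batch LC (0.41) or with no filter on low counts (0.28), for Tpm1 without shRNA replicate 3 of batch LA (0.26) or by DESeq2 (0.22), and for Tnnt3 without lamin A replicate 2 (-1.16), which also called Tnnt3 in the changes left against control hearts (-1.44). Tnnt2 was called in those changes with no filter (0.30) and in the compared groups alone (0.31). Control hearts of the 2 batches did not differ in any tested member by edgeR (0 of 8, against 0.106% of all tested genes, 0.0615% higher and 0.0448% lower; DESeq2 also gave 0; Tnnc1 alone had an unadjusted p under 0.05, at 0.18 ± 0.07, edgeR adjusted p = 0.299).

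The neighbours Tnnt1 and Tnni3 therefore stood in different ratios in each group. Tnnt1 was at 0.924% ± 0.132 of Tnni3 in lamin C, 0.722% ± 0.0283 in shRNA and 0.348% ± 0.0188 in control hearts of batch LC. In batch LA it was at 0.474% ± 0.0373 in lamin A, 0.792% ± 0.0403 in shRNA and 0.343% ± 0.0364 in control hearts. No groups of a batch overlapped, although 3 against 3 libraries cannot give an exact p below 0.10.

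These 3 isoform ratios lay, in the lamin groups, between those of shRNA and control hearts or near control hearts. Tnni1 stood at 0.0135% of Tnni3 in lamin C hearts and 0.0167% in lamin A hearts, above all control libraries and below all shRNA libraries of the batch. Tnnt3 stood at 0.0422% of Tnnt2 in lamin C hearts and 0.114% ± 0.0589 in lamin A hearts, both overlapping control hearts. Tpm2 stood at 0.745% of Tpm1 in lamin C hearts, overlapping control hearts, and at 0.926% ± 0.186 in lamin A hearts, above them. The lamin groups stood apart from both other groups in the ratio of Tnnc1 to Tnnt2, with 184.9% ± 3.50 in lamin C, 144% ± 30.4 in shRNA and 165.1% ± 12.6 in control hearts of batch LC. In batch LA that ratio was 216% ± 8.74 in lamin A, 149% ± 12.6 in shRNA and 156% ± 10.1 in control hearts. The ratio of Tpm1 to Tnnt2 was likewise higher, at 155% ± 4.79 in lamin C, 125% ± 18.1 in shRNA and 138% ± 5.72 in control hearts, and 170.2% ± 1.71 in lamin A, 128% ± 6.90 in shRNA and 134% ± 3.08 in control hearts. Each lamin library lay above all shRNA and control libraries of its batch in both ratios, at exact p = 0.10, the smallest possible.

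Tropomyosins Tpm3 and Tpm4, made in many cell types and not members, also rose in shRNA hearts, by 0.85 ± 0.04 and 0.59 ± 0.06 on the log2 scale over both batches (edgeR adjusted p = 1.02e-12 and 1.94e-08). Tpm3 averaged 22.1 ± 1.13 FPKM in lamin A, 24.2 ± 1.36 FPKM in shRNA and 13.1 ± 0.744 FPKM in control hearts, and Tpm4 averaged 108 ± 4.48 FPKM in lamin A, 100.3 ± 10.2 FPKM in shRNA and 66.1 ± 5.67 FPKM in control hearts. Neither was called between lamin A and shRNA hearts (-0.14 ± 0.06 and 0.11 ± 0.08), although with library totals Tpm3 was called lower (-0.34) and Tpm4 stood at -0.10, whereas with lamin C both were lower than in shRNA hearts (-0.58 ± 0.06 and -0.42 ± 0.08). The lamin effects differed for Tpm3 (-0.45 ± 0.09, edgeR adjusted p = 0.00125) and Tpm4 (-0.53 ± 0.12, adjusted p = 0.00331), but were not called different for Tpm2 (-0.09 ± 0.15, adjusted p = 0.738).

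**Figure D4:**
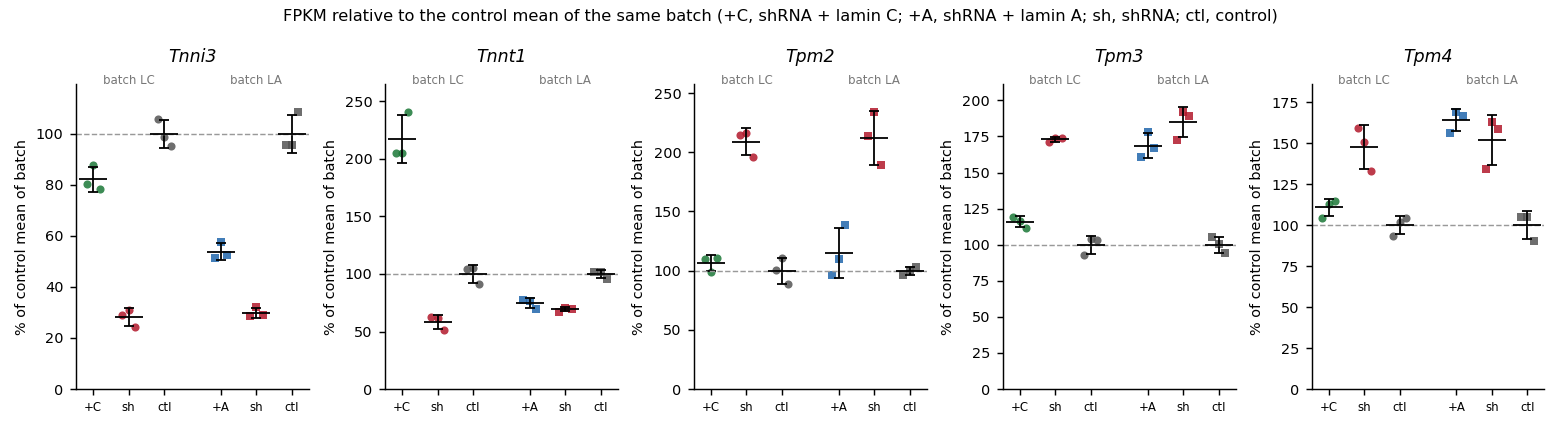
FPKM of Tnni3, Tnnt1 and the tropomyosins Tpm2, Tpm3 and Tpm4 as a percentage of the control mean of the same batch (vertical axes, from 0), with 1 point per library and the mean and SD of 3. Tnnt1 stood at 217% in lamin C and 74.6% in lamin A hearts, while Tpm4 stood at 164% in lamin A and 111% in lamin C hearts.

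Other genes of the sarcomere were read beside the members. In shRNA against control hearts over both batches, 72.2% of all tested genes were called, 38.4% higher and 33.8% lower. Of 16 thick filament and Z-disc genes, 1 was higher and 14 lower (median log2 fold change -0.80, and -0.37 with library totals). Among them were the ventricular light chains Myl2 (-1.37 ± 0.04) and Myl3 (-1.21 ± 0.05) and titin (Ttn, -0.88 ± 0.04). Of 19 other thin filament genes, 6 were higher and 9 lower (median -0.06), but 12 were higher and 6 lower with library totals. The troponin I interacting kinase Tnni3k fell (-1.40 ± 0.05), as did the pointed-end cap Tmod1 (-0.92 ± 0.04), while the barbed-end capping subunit Capza1 rose (0.85 ± 0.04). In lamin C against shRNA hearts 14 of the 16 thick filament and Z-disc genes were higher and 1 lower (median 0.62; 10 higher and 2 lower with library totals), and in lamin A against shRNA hearts 10 were higher and 0 lower (median 0.32; 6 more were not called, and with library totals 7 were higher and 3 lower).

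In these bulk libraries, fewer heart muscle cells and less of a transcript per cell cannot be told apart. The 14 heart muscle markers include Myl2, Myl3, Ttn and other genes of the thick filament and Z-disc list, so these lists are not separate. Of the 14 markers, 0 were higher and 13 lower in shRNA than in control hearts (median -1.18; 2 higher and 10 lower with library totals). Their summed level was 79920 to 83460 CPM in lamin C, 33600 to 41960 CPM in shRNA and 97230 to 101400 CPM in control hearts of batch LC. It was 58320 to 62320 CPM in lamin A, 38450 to 39110 CPM in shRNA and 94190 to 97240 CPM in control hearts of batch LA. Fibroblast markers moved the other way, with 10 of 10 higher in shRNA than in control hearts (median 2.52), at 2667 to 3979 CPM in lamin C, 9462 to 14250 CPM in shRNA and 1432 to 1856 CPM in control hearts of batch LC. In batch LA they lay at 8739 to 11530 CPM in lamin A, 12680 to 13490 CPM in shRNA and 1743 to 1927 CPM in control hearts. The part of these cells in the levels of the members was not tested.

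Most skeletal muscle markers that passed the filter on low counts, other than the members, were higher in shRNA hearts. That filter asks for 3 libraries of any group, so markers near 0 in control hearts could enter only where they were high. The calls therefore do not show a rise of the list as a whole. Of 15 markers, 12 were tested, with 8 higher and 2 lower in shRNA than in control hearts (median 2.38). Their summed level was 47.4 to 54.8 CPM in lamin C, 120.9 to 143.7 CPM in shRNA and 45.2 to 47.4 CPM in control hearts of batch LC, and 52.1 to 71.2 CPM in lamin A, 113.7 to 132 CPM in shRNA and 44.8 to 51.7 CPM in control hearts of batch LA. The myosins Myh1 (4.07 ± 0.56) and Myh2 (3.54 ± 0.38) and the light chain Myl1 (1.94 ± 0.08) rose, while the calcium channel subunit Cacna1s fell (-3.50 ± 0.14). The fast myosin Myh4 and the muscle regulator Myog were at 0 in lamin C and control hearts of batch LC and in control hearts of batch LA, Myh4 was also at 0 in lamin A hearts, and Pvalb and Myod1 in control hearts of batch LA. No more than 4 of the 15 markers reached 1 CPM in any group. In shRNA hearts of batch LC only 2 did. Tnni2, not called between shRNA and control hearts, was 1 of them, at 1.77 CPM, so the other made up most of the summed level. The part of the markers in the levels of Tnni1 and Tnnt3 was not tested.

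Over the 18 libraries, the profiles most like each member were sought among 10491 protein-coding genes with a mean of 5 CPM or more, by the root mean square difference of centred log2 CPM. Near to Tnni3 were Aldh4a1 and Tmem143 (0.06 each, where Tnni3 itself varied by 0.77). The nearest to Tnnc1 were Cdc34, Dnajc11 and 2410015M20Rik (0.07 each, own variation 0.27), to Tpm1 Ybx1, Eef1d and Hdac3 (0.05 to 0.06, own 0.24), and to Tnnt2 Synpo2, Mtm1 and Phka1 (0.09 to 0.10, own 0.24). Tpm2 was nearest to Pgrmc1, Pmm1 and Cib1 (0.15 each, own 0.50). No gene came as near to Tnnt1: Fam161b, Dnajb5 and Kcnj12 lay at 0.34 to 0.37, with own variation of 0.63, and in lamin C against control hearts they stood at 0.20, -0.01 and 0.06 on the log2 scale, against 1.12 for Tnnt1. The low genes Tnni1 (Ahnak2, Nox4 and Hspa1a, 0.50 to 0.53, own 1.49) and Tnnt3 (Cd109, Synm and Uchl1, 0.49 to 0.52, own 1.29) were nearest to genes higher in shRNA than in control hearts. Hspa1a has a near-identical copy, so its counts are uncertain, and likeness here is over libraries that share groups.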

How the data were processed

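RNA from the heart apex was kept in RNAlater, extracted with Trizol, selected by its poly-A tail and made into directional libraries, per the labels' protocols. The submitters' processing notes name mm10 and, without roles, DESeq2 1.20.0, StringTie 1.3.3b, featureCounts 1.5.0-p3 and HISAT2 2.0.5. The count values were deposited by the authors as whole numbers per gene. The FPKM values were deposited too, and equal the count over gene length and an adjusted library size. The sources used here do not say if reads were counted by strand.

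All 18 libraries entered a fit of 6 groups with edgeR 4.0.16 (R 4.3.3; TMM, filterByExpr, quasi-likelihood F test, 12 residual degrees of freedom), with p adjusted by Benjamini-Hochberg over 17876 genes and a threshold of 0.05. Comparisons were the lamin groups and shRNA against control, the lamin groups against shRNA, and the differences between batches. FPKM ratios were compared by two-sided exact permutation tests. The fit was tested on simulated data. Labels do not say that libraries came from separate animals, so p-values measure the spread between libraries. The named genes were all 9 members, the called genes with the 4 smallest p of each list in shRNA against control, and the 3 genes most like each member; Tnni2, Tpm4, Myh4, Myog, Pvalb and Myod1 were named after their values were seen. Of the genes this rule names, 2 are not reported here. Members and lists were chosen with earlier results of these data known. Alternatives were DESeq2 1.42.0, RLE size factors, library totals, no filter, limma 3.58.1 on log2(FPKM + 1) or log2(FPKM + 0.1), no mitochondrial genes, the compared groups alone, a replicate block, each library left out, and the 2 late-numbered controls left out. Subunit ratios and coding-transcript lengths were added after the data were seen.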

Additional observations from a re-analysis of the deposited data

Results flagged for a closer look

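The effects of lamin C and lamin A, each against shRNA hearts of the same batch, differed by the test of the difference itself for Tnnt1 (1.79 on the log2 scale) and Tnni3 (0.69), both higher with lamin C. The changes of lamin C and lamin A hearts against their own controls differed in the same way for Tnnt1 (1.54) and Tnni3 (0.61). For both genes and both differences, every library left out in turn gave a value of the same sign, within 1.70 to 1.84 and 1.46 to 1.58 for Tnnt1, and 0.60 to 0.77 and 0.55 to 0.66 for Tnni3. Lamin and batch were given together. Lmna, whose counts do not separate vector from host transcripts, had a higher level in lamin C hearts (209.5 FPKM) than in lamin A hearts (88.8 FPKM). The part of either in these differences was not tested.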

How the results depend on the processing

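Scaling by library totals called, in shRNA against control hearts of batch LA, 4 of the 8 members in place of 8, and put Tnnt2 at 0.020, 0.025 and 0.022 in batch LC, batch LA and both. They also turned the sign of Tnnt2 in lamin C against shRNA hearts (-0.14), of Tnnt1 in lamin A against shRNA hearts (-0.10), of Tnnc1 and Tpm1 in lamin C (0.047 and 0.057) and lamin A (0.18 and 0.048) against control hearts, and of Tnnt2 in the difference of shRNA effects (-0.0058). That difference was also turned by leaving out the 2 late-numbered controls, for Tnni1 (-0.11) and Tnnt2 (-0.035), and none of these differences was called. With each library left out in turn, it ranged from -0.016 to 0.80 for Tnni1, -0.16 to 0.0074 for Tnni3, -0.12 to 0.082 for Tnnt2 and -0.10 to 0.055 for Tpm2. Other uncalled values that crossed 0 were Tpm2 in the lamin effects (-0.20 to 0.064) and in the changes left against control (-0.22 to 0.044), Tnnc1 in the changes left (-0.044 to 0.026), and, between control hearts, Tnnt3 (-0.028 to 0.32) and Tpm2 (-0.025 to 0.13). The ratio Tnnt3/Tnnt2 in lamin C against control hearts ranged from -0.40 to 0.090. Members called in lamin A against control hearts ranged from 3 to 6. In shRNA against control hearts, Tnnt1/Tnnt2 ranged from -0.29 to -0.13 and stood at -0.24 without the late-numbered controls (exact permutation p = 0.12), and Tpm1/Tnnt2 ranged from -0.15 to -0.045, called without shRNA replicate 1 of batch LC or 2 of batch LA.

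Same-numbered libraries did not deviate together (18 pairs, correlation -0.15 to 0.17, 2 over 0.1), which shows no pairing by number but cannot exclude one. The replicate block left the counts of members called at 8, 8 and 8 for shRNA against control, 7 and 6 for the lamins against shRNA, and 3 and 5 against control, and turned Tnnt3 between control hearts to -0.17. By sign flips of same-numbered pairs the 4 isoform ratios had an exact p of 0.0312, the smallest that 6 pairs allow. Tnni1 failed the FPKM filter of limma and has no value there. Levels of Tnni1 and Tnnc2 rest on few counts, and Tnnc2 was not tested. The cause of these changes was not tested.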

Other observations

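Genes that regulate troponin and tropomyosin expression or splicing in muscle were also measured. Over all tested genes, 38.4% were called higher and 33.8% lower in shRNA than in control hearts, and the counts of each list here stand against those shares. Of 25 regulators of these genes, 6 were higher and 15 lower in shRNA than in control hearts (median log2 fold change -0.23, all genes 0.05), but 15 were higher and 6 lower with library totals. The deiodinase Dio2, which makes active thyroid hormone, rose by 4.99 ± 0.20, and the thyroid hormone receptor Thra fell by 0.69 ± 0.05, the cardiac factor Tbx5 by 0.93 ± 0.07 and Mef2d by 0.65 ± 0.05 (edgeR adjusted p up to 3.89e-10). Of 12 splicing regulators, 4 were higher and 7 lower (median -0.15), but 8 were higher and 4 lower with library totals (median 0.28). The 4 with the smallest p were all lower: Rbfox1 (-2.79 ± 0.10), the titin splicing factor Rbm20 (-0.97 ± 0.05), Rbm24 (-0.75 ± 0.07) and Qk (-0.62 ± 0.04).

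Of 10 smooth muscle markers, 4 were higher and 4 lower in shRNA than in control hearts, shares near those of all tested genes, and 4 higher and 2 lower with library totals, with Cnn1 (4.35 ± 0.22) and Myl9 (1.16 ± 0.08) higher and Smtn (-1.40 ± 0.06) and Mylk (-0.61 ± 0.06) lower. Of 8 macrophage markers 7 were higher and 0 lower (median 1.82), and of 8 endothelial markers 0 were higher and 8 lower (median -0.53), although with library totals 1 was higher and 4 lower.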
